A study of Drosophila melanogaster with 2 samples.

Results

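The genes for aminoacyl-tRNA synthetases, the enzymes that charge each tRNA with its amino acid, were examined for binding of the tagged protein Mes4-GFP in Drosophila melanogaster embryos. They were taken from the Ensembl BDGP6 annotation as the protein-coding genes whose symbol is the 3-letter code of an amino acid followed by RS, with or without a suffix. The rule found 32 of the 13945 protein-coding genes on the chromosome arms. The 15 whose symbol ends in -m are called mitochondrial and the other 17 cytoplasmic, and 12 amino acids have an enzyme gene of each class. The names GluProRS, alpha-PheRS, beta-PheRS and Slimp have another form, and these genes are given apart.

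Whole embryos of pooled sex, aged 0 to 16 h, came from a transgenic line whose Mes4 carries GFP at its C terminus. Mes4 is a gene distinct from the histone methyltransferase gene Mes-4. The chromatin, sheared to 200 to 800 bp, was precipitated with an antibody against GFP and sequenced. The design has 1 group with biological replicates 3 and 4, and chromatin from an untagged line was not analysed here, so the data describe where peaks lie and hold no contrast between conditions. All cell types of the embryo are mixed in each sample. For each replicate, and for both pooled, the authors deposited a relaxed list of 30000 peaks, named as peaks and background. Their optimal list, set by an irreproducible discovery rate (IDR) procedure, holds 3207 peaks, all of them the strongest 3207 of the pooled list. Each peak has a signal value from the authors' peak caller, whose scale is not stated. It ranks peaks within a list (rank 1 is the strongest) and was not compared between lists. A gene was scored by its strongest peak with the summit within 500 bp of one of its transcription start sites (TSSs). A gene with no such peak is called not listed. The lowest values listed are 22.9 in the pooled list, 13.8 in replicate 3 and 11.97 in replicate 4. How the lists were cut is not stated, so these values set no firm limit on the signal at a gene not listed. A listed peak can still lie more than 500 bp from its TSSs. Sequencing depth is unknown from these files.

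Fly cells translate in 2 compartments. Cytoplasmic synthetases charge the nuclear-encoded tRNAs that serve the bulk of protein synthesis, while the -m enzymes, also encoded in the nucleus, are imported to charge the tRNAs of the mitochondrial genome. Some synthetases have no separate mitochondrial gene: in human cells, for example, 1 gene each for the glycyl- and the lysyl-tRNA synthetase supplies both compartments. The cytoplasmic genes are housekeeping genes, needed in every growing cell.

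Peaks of the optimal list stood at 8 of the 32 synthetase genes (25%), against 15.1% of all protein-coding genes. They were at 6 of the 17 cytoplasmic genes (IleRS, SerRS, ThrRS, AspRS, AsnRS and ArgRS, 35.3%) and at 2 of the 15 mitochondrial genes (LeuRS-m and ArgRS-m, 13.3%), a difference of 22.0 percentage points. Of the cytoplasmic genes, 5 of the 12 with a mitochondrial counterpart among the members had one (41.7%), and 1 of the 5 without (20%). Of the mitochondrial genes, 2 of the 12 with a cytoplasmic counterpart had one (16.7%), and 0 of the 3 without. The 3207 strongest peaks of each replicate alone gave the same order of the classes with different sizes. In replicate 3 they stood at 4 cytoplasmic genes (23.5%) and 2 mitochondrial genes (13.3%), against 14.9% of all protein-coding genes. In replicate 4 they stood at 7 cytoplasmic genes (41.2%) and 2 mitochondrial genes (13.3%), against 14.7% of all. The mitochondrial share was thus near the background in each list, and the cytoplasmic share lay above it by an amount that differed between replicates. When each peak was counted only for the gene with the nearest TSS, 2 of 17 cytoplasmic genes and 1 of 15 mitochondrial genes kept an optimal peak, against 10.9% of all protein-coding genes. The cytoplasmic share was then near the background too, and the difference between the classes fell to 5.10 percentage points. Genes are not replicates, so no test was made of these shares.

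Most synthetase genes had at least a weak peak. In the pooled relaxed list 26 of 32 were scored (81.2%), against 54.6% of all protein-coding genes. Of those 26, 8 (30.8%) were in the optimal list, against 27.6% of all genes with a pooled relaxed peak. Among genes with any pooled peak, the share in the optimal list was thus near the background. Replicate 3 listed 26 members (54.9% of all genes) and replicate 4 listed 22 (50.8% of all genes), and 30 were in at least 1 relaxed list (63.5% of all genes). The cytoplasmic genes were listed in 16 of 17 cases in the pooled list, and the mitochondrial genes in 10 of 15. Taking all members, with those not listed counted as lowest, the median pooled signal was 72.8 for cytoplasmic and 28.8 for mitochondrial genes, and 26.8 for all protein-coding genes. In replicate 3 the medians were 43.8 for cytoplasmic, 19.7 for mitochondrial and 16.6 for all genes. In replicate 4 they were 29.3, 15.2 and 12.3, in the same order. The cytoplasmic median was therefore the highest of the 3 in each list, and the mitochondrial median lay close to that of all genes.

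**Figure D1:**
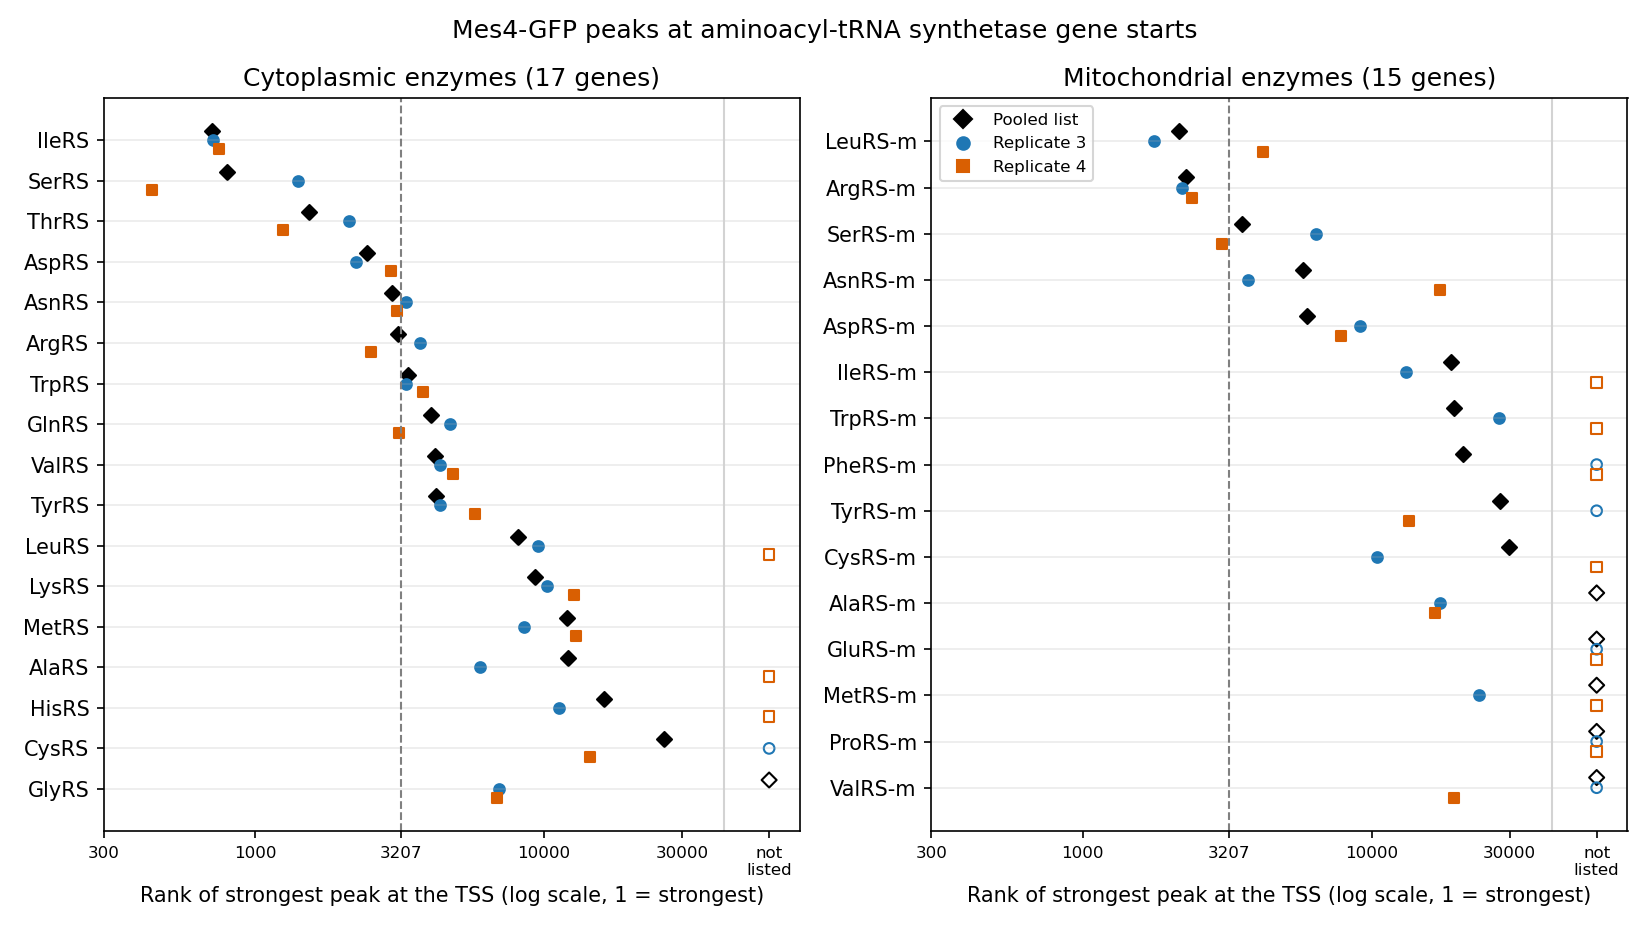
Rank of the strongest peak at the start of each of the 32 synthetase genes in the pooled list (black diamonds), replicate 3 (blue circles) and replicate 4 (orange squares), on a log axis where left is stronger; open symbols at the right edge mark genes not listed, and the dashed line marks rank 3207, where the optimal list ends. IleRS, SerRS and ThrRS lie left of the line in all 3 lists, with AspRS and ArgRS-m, and most mitochondrial genes lie far right of it or are not listed.

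The strongest site was at IleRS, which encodes the cytoplasmic isoleucyl-tRNA synthetase (3L, 22288665 to 22292810, plus strand; peak 22288320 to 22288735). Its signal was 203 in the pooled list (rank 708), 121 in replicate 3 (rank 714) and 80.8 in replicate 4 (rank 750). The ranks hardly moved, and the summits of the replicates lay 2 bp apart, 137 bp upstream of the TSS in replicate 3. SerRS, for the cytoplasmic seryl-tRNA synthetase, followed (2L, 3035493 to 3037403, minus strand; peak 3037213 to 3037628). It had 191 in the pooled list (rank 797), 82.99 in replicate 3 (rank 1410) and 107 in replicate 4 (rank 441), so it stood higher than IleRS in replicate 4 and lower in replicate 3. ThrRS, for the threonyl-tRNA synthetase, had no -m counterpart among the members (2L, 12103751 to 12107170, plus strand; peak 12103402 to 12103817). Its signal was 131 in the pooled list (rank 1541), 67.1 in replicate 3 (rank 2110) and 61.6 in replicate 4 (rank 1248). These 3 genes are the members in the stronger 1603 peaks of the optimal list, and all 3 were among the 3207 strongest peaks of each replicate.

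The mitochondrial genes with optimal peaks ranked next. LeuRS-m, for the mitochondrial leucyl-tRNA synthetase (3L, 4825853 to 4829038, plus strand; peak 4825536 to 4825951), had 109 in the pooled list (rank 2149) and 73.3 in replicate 3 (rank 1767). In replicate 4 it had 31.6 (rank 4201), outside the 3207 strongest, although its summit lay at the same base in both replicates. ArgRS-m, for the mitochondrial arginyl-tRNA synthetase (3R, 7887045 to 7890150, plus strand; peak 7886769 to 7887184), had 105 in the pooled list (rank 2273), 65.3 in replicate 3 (rank 2216) and 42.9 in replicate 4 (rank 2393). Of the 15 mitochondrial genes it was thus the 1 among the strongest peaks of both replicates.

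Close to the end of the optimal list stood AsnRS and ArgRS, for the cytoplasmic asparaginyl- and arginyl-tRNA synthetases. AsnRS (2L, 19129469 to 19131954, minus strand; peak 19131951 to 19132366) had 90.1 in the pooled list (rank 2967), 51.5 in replicate 3 (rank 3341) and 37.0 in replicate 4 (rank 3109). ArgRS (X, 15841769 to 15844145, minus strand; peak 15844134 to 15844549) had 86.8 in the pooled list (rank 3122), just above the lowest optimal signal of 85.5. Its signal was 48.3 in replicate 3 (rank 3712) and 41.7 in replicate 4 (rank 2524). Both fell outside the 3207 strongest peaks of replicate 3 and inside those of replicate 4, which is the whole difference between the 4 and the 6 cytoplasmic genes.

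The sequences at 6 of the 8 optimal peaks are shown because the summits lay in the short stretch between the synthetase gene and a neighbour. Each runs 5′ to 3′ on the synthetase gene's strand, from 75 bp beyond the summit (or from the end of the neighbour's exon, where that is nearer) to the base before the synthetase TSS, and holds no annotated exon. Capitals mark matches to the motifs described further on, on either strand. The summit is base 57 of the LeuRS-m sequence and base 76 of the others, counted from the 5′ end. The sequences come from the Release 6 RefSeq genome, the build of the peak lists (dm6). The positions are chr3L:22288453-22288664 (plus strand) for IleRS, chr2L:12103535-12103750 (plus) for ThrRS, chr2L:19131955-19132234 (minus) for AsnRS, chrX:15844146-15844417 (minus) for ArgRS, chr3L:4825688-4825852 (plus) for LeuRS-m and chr3R:7886902-7887044 (plus) for ArgRS-m.
IleRS: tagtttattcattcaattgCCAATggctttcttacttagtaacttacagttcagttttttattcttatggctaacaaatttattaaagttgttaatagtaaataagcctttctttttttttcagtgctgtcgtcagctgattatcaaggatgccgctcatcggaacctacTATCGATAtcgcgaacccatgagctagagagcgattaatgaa
ThrRS: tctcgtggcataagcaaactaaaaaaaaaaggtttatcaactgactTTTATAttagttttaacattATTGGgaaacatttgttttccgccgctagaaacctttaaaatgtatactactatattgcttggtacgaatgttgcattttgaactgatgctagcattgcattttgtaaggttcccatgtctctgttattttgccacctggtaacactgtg
AsnRS: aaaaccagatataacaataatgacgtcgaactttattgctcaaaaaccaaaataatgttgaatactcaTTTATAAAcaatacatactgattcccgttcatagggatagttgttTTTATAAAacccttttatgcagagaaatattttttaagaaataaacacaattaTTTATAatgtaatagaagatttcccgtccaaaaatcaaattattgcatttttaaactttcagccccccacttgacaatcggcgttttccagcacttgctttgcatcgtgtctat
ArgRS: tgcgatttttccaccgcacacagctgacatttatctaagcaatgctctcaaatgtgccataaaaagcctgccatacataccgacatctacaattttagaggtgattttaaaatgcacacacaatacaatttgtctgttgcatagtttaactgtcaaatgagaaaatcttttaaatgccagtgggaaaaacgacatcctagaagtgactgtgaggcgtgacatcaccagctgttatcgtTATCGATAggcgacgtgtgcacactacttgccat
LeuRS-m: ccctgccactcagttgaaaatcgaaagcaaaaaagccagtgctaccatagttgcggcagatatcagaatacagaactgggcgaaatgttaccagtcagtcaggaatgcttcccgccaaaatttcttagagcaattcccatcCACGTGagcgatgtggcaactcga
ArgRS-m: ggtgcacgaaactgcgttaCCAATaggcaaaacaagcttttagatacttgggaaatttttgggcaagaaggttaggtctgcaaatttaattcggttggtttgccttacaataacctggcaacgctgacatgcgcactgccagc

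The stretches at IleRS, ThrRS and AsnRS were rich in A and T, with 34.4%, 34.3% and 30.4% G and C. Those at LeuRS-m and ArgRS-m held 47.3% and 44.8%, and that at ArgRS 40.4%. Within 100 bp of the summit, the median G and C content was 30.8% for the 8 members with an optimal peak (24.9 to 46.3), against 37.8% for all genes with an optimal peak. Members with only a weaker pooled peak had a median of 40.5% (21.9 to 55.2). The ranges overlapped, and over all protein-coding genes the median was 41.8% for those with a pooled peak, so genes with an optimal peak had the lower median there too. In the promoters, from 250 bp before to 50 bp from the TSS, the order was the opposite: the median was 39.3% for members with an optimal peak and 34.2% for those without.

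All 8 optimal peaks were shared with a neighbouring gene transcribed away from the synthetase gene. Each summit lay within 500 bp of the neighbour's TSS as well, in 8 of 8 cases, against 59.9% of all genes with an optimal peak, and the nearest such neighbour was divergent in 8 of 8, against 53.2%. The neighbours were Hem, a subunit of the actin-regulating WAVE complex, at IleRS, CG17260 at SerRS, Patsas at ThrRS, Dhc64C, the heavy chain of cytoplasmic dynein, at LeuRS-m, CG17816 at ArgRS-m, Nmda1 at AspRS, the dynactin gene DCTN6-p27 at AsnRS and CG8578 at ArgRS. The distance between the TSSs ran from 8 bp (SerRS and CG17260) to 470 bp (IleRS and Hem). The summit lay nearer to the neighbour's TSS in 5 of the 8, against 28.7% of all genes with an optimal peak, and nearer to the synthetase gene's TSS at IleRS, ThrRS and ArgRS-m. A peak shared by 2 divergent starts cannot be assigned to either gene from these lists. At AspRS and SerRS the summit lay past the neighbour's TSS, 189 and 10 bp inside the neighbour's gene, and not between the starts. All 8 pooled summits lay upstream of the synthetase gene's nearest TSS, at a median of -139 bp, against 82.9% of all genes with an optimal peak, whose median was -109 bp.

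**Figure D2:**
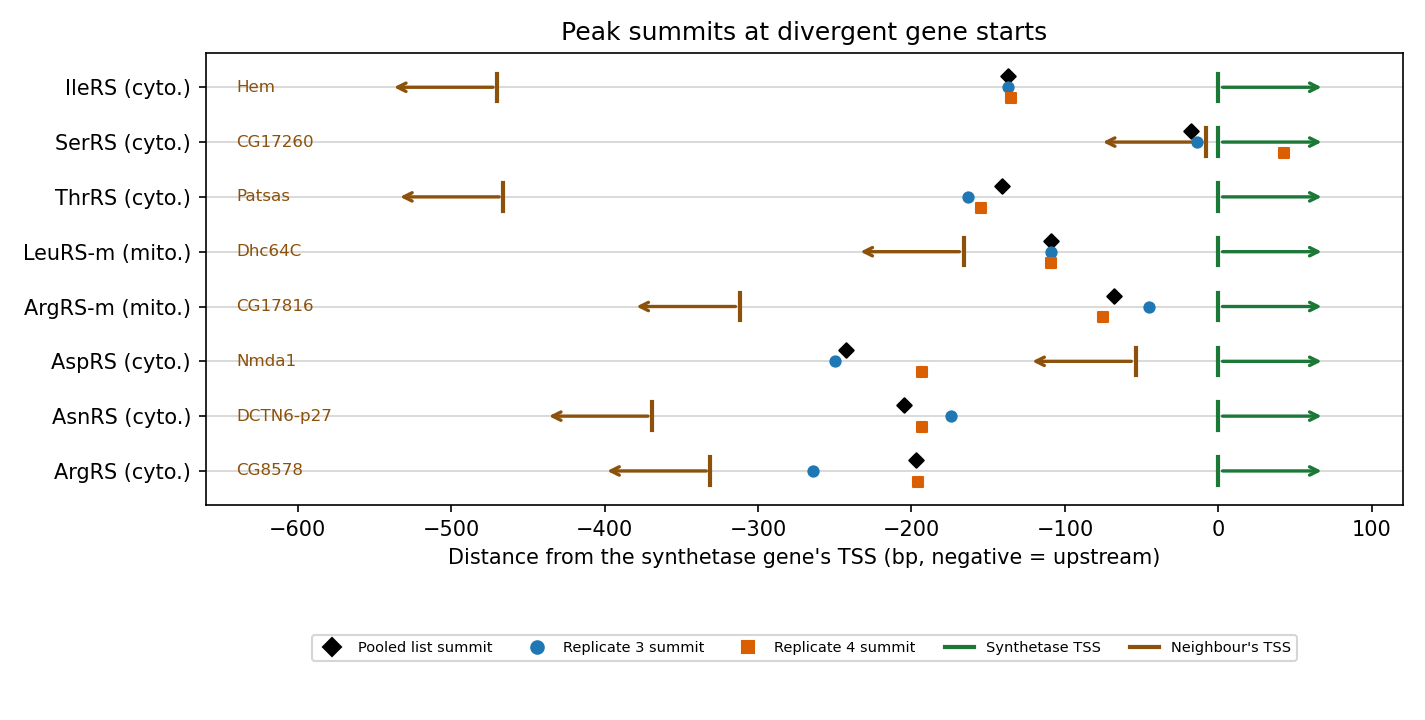
Summit positions at the 8 synthetase genes with an optimal peak, in bp from the gene's own TSS (green, at 0, transcribed to the right); black diamonds are the pooled list, blue circles replicate 3, orange squares replicate 4, and brown bars with arrows the TSS of the named divergent neighbour. The replicate summits lie 0 to 68 bp apart, and 5 of the 8 pooled summits lie nearer to the neighbour's TSS.

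AspRS, for the cytoplasmic aspartyl-tRNA synthetase (2R, 12877004 to 12883168, plus strand; peak 12879833 to 12880248), differed from the others in position. It had 101 in the pooled list (rank 2436), 64.9 in replicate 3 (rank 2241) and 38.1 in replicate 4 (rank 2962). AspRS has 3 annotated TSSs, and the summit fell in an intron of both AspRS and Nmda1, 243 bp upstream of the nearest AspRS TSS. Counting only the most 5′ TSS of each gene removed AspRS and none of the other 7 members. At SerRS the pooled summit lay in the 5′ UTR of CG17260, 18 bp upstream of a SerRS TSS. The summits of the other 6 optimal peaks were intergenic. Over all 26 members with a pooled peak, 18 (69.2%) shared it with another start, against 44.6% of all genes with a pooled peak.

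The arrangement of the genes differed between the classes before any peak was counted. A gene on the opposite strand started within 1000 bp upstream of a TSS of 15 of the 17 cytoplasmic genes (88.2%) and 7 of the 15 mitochondrial genes (46.7%), against 39.6% of all protein-coding genes. This distance was chosen after the peaks had been seen. With such a head-to-head neighbour, 6 of 15 cytoplasmic genes (40%) and 2 of 7 mitochondrial genes (28.6%) had an optimal peak, against 25.9% of all genes so arranged. Without one, none of 2 cytoplasmic genes (AlaRS and CysRS) and none of 8 mitochondrial genes had one, against 7.93% of all such genes. Head-to-head arrangement thus moved with the difference between the classes, and its part in that difference was not tested.

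Below the optimal list, several cytoplasmic genes had peaks of middle rank. TrpRS, for the tryptophanyl-tRNA synthetase, was the nearest to it, at 82.7 in the pooled list (rank 3383), 51.7 in replicate 3 (rank 3321) and 33.3 in replicate 4 (rank 3806). GlnRS (glutaminyl) had 74.4 in the pooled list (rank 4047), 42.0 in replicate 3 (rank 4713) and 36.8 in replicate 4 (rank 3142), and so entered the 3207 strongest of replicate 4. ValRS (valyl) and TyrRS (tyrosyl) stood at pooled signals of 72.8 (rank 4202) and 72.4 (rank 4234), with replicate ranks from 4357 to 5747. The peaks of TrpRS, GlnRS and ValRS were again shared with divergent neighbours, the vesicle-trafficking gene Vps16A, the ribosome assembly kinase gene RIOK2 and the histone demethylase gene Kdm4B, and lay nearer to the neighbour's TSS. The TyrRS summit was different: it lay 308 bp downstream of the TSS in a coding exon of TyrRS, at 305 and 293 bp in replicates 3 and 4. GluRS-m lies next to TyrRS on 3L and has no listed peak of its own at its start.

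The other cytoplasmic genes had weak peaks that the replicates did not always share. LeuRS (leucyl), with 48.8 in the pooled list (rank 8130), and AlaRS (alanyl), with 38.8 (rank 12114), were listed in replicate 3 at 27.5 and 36.3 and not listed in replicate 4. Their pooled summits lay in coding exons of other genes, CG17593 at LeuRS and CG13392 at AlaRS. HisRS (histidyl), which starts at the same base as a transcript of Bx, had 33.2 in the pooled list (rank 16067) and 25.02 in replicate 3 and was not listed in replicate 4, and CysRS (cysteinyl) had 25.1 (rank 26022) and 17.5 in replicate 4 and was not listed in replicate 3. LysRS (lysyl) had 45.1 (rank 9305) with 26.5 and 18.6 in replicates 3 and 4, and MetRS (methionyl) 39.0 (rank 11969) with 29.3 and 18.5. The pooled peaks at LeuRS, LysRS and MetRS lay nearer to the TSS of a divergent neighbour (CG17593, Hecw and CG15084). GlyRS (glycyl) was the cytoplasmic gene with no pooled peak at its start. It was listed at 33.1 in replicate 3 (rank 6953) and 24.5 in replicate 4 (rank 6870), but the summits lay 552 bp apart, on opposite sides of the TSS. The nearest pooled summit lay 539 bp upstream of the GlyRS TSS (rank 7270), just past the 500 bp limit. Since the relaxed lists hold background by design, a place at these ranks does not by itself show binding.

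Among the other 13 mitochondrial genes SerRS-m (seryl) came nearest to the optimal list, with 80.0 in the pooled list (rank 3574), 34.9 in replicate 3 (rank 6412) and 37.5 in replicate 4 (rank 3039). Its pooled summit lay at -493 bp from the TSS, at the edge of the distance allowed, in an intron of Nagk. AsnRS-m (asparaginyl) had 59.6 in the pooled list (rank 5802) and 48.1 in replicate 3 (rank 3740), but 16.0 in replicate 4 (rank 17290), the widest gap in rank between replicates of any member listed in both. AspRS-m (aspartyl) had 58.6 (rank 5967), with 28.3 and 23.1 in replicates 3 and 4 and summits 6 bp apart. IleRS-m, TrpRS-m, PheRS-m, TyrRS-m and CysRS-m had pooled signals from 22.9 to 30.4 and ranks from 18856 to 29942, and none of the 5 was listed in both replicates. AlaRS-m, MetRS-m and ValRS-m were not in the pooled list. AlaRS-m was listed in both replicates, at 19.7 and 16.4, with summits 420 bp apart, MetRS-m in replicate 3 at 16.2 and ValRS-m in replicate 4 at 15.2. GluRS-m and ProRS-m, for the enzymes that charge the mitochondrial tRNAs for glutamate and proline, were not listed at their starts in any of the lists.

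Set side by side for 1 amino acid, the cytoplasmic gene had the stronger peak in 10 of the 12 pairs in the pooled list and in 9 of 12 in each replicate. In 8 pairs (Asn, Asp, Ile, Met, Ser, Trp, Tyr and Val) it was the stronger in all 3 lists. However, the pooled peaks at AsnRS, AspRS, MetRS, SerRS, TrpRS and ValRS lay nearer to a divergent neighbour's TSS. So did those at ArgRS, LeuRS, LeuRS-m and TyrRS-m. Those at IleRS, ArgRS-m, AsnRS-m and CysRS-m lay nearer to the synthetase gene's TSS but were shared too, with Hem, CG17816, ste24a and O-fut1. Shared peaks cannot be assigned to either gene from these lists, so the order within all these pairs, isoleucine included, may not describe the synthetase genes. In the pooled list the difference was widest for isoleucine, where IleRS had 203 and IleRS-m 30.4. The values were 121 and 22.9 in replicate 3, and 80.8 in replicate 4 with IleRS-m not listed. Arginine and leucine went the other way in all 3 lists. ArgRS had 86.8 and ArgRS-m 105 in the pooled list, and in replicate 4 they were nearly level at 41.7 and 42.9. LeuRS had 48.8 and LeuRS-m 109 in the pooled list, 27.5 and 73.3 in replicate 3, and in replicate 4 LeuRS was not listed while LeuRS-m had 31.6. The pairs for alanine and cysteine changed order between lists, all at low signal. The pooled list is made from both replicates and is not a further replicate.

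**Figure D3:**
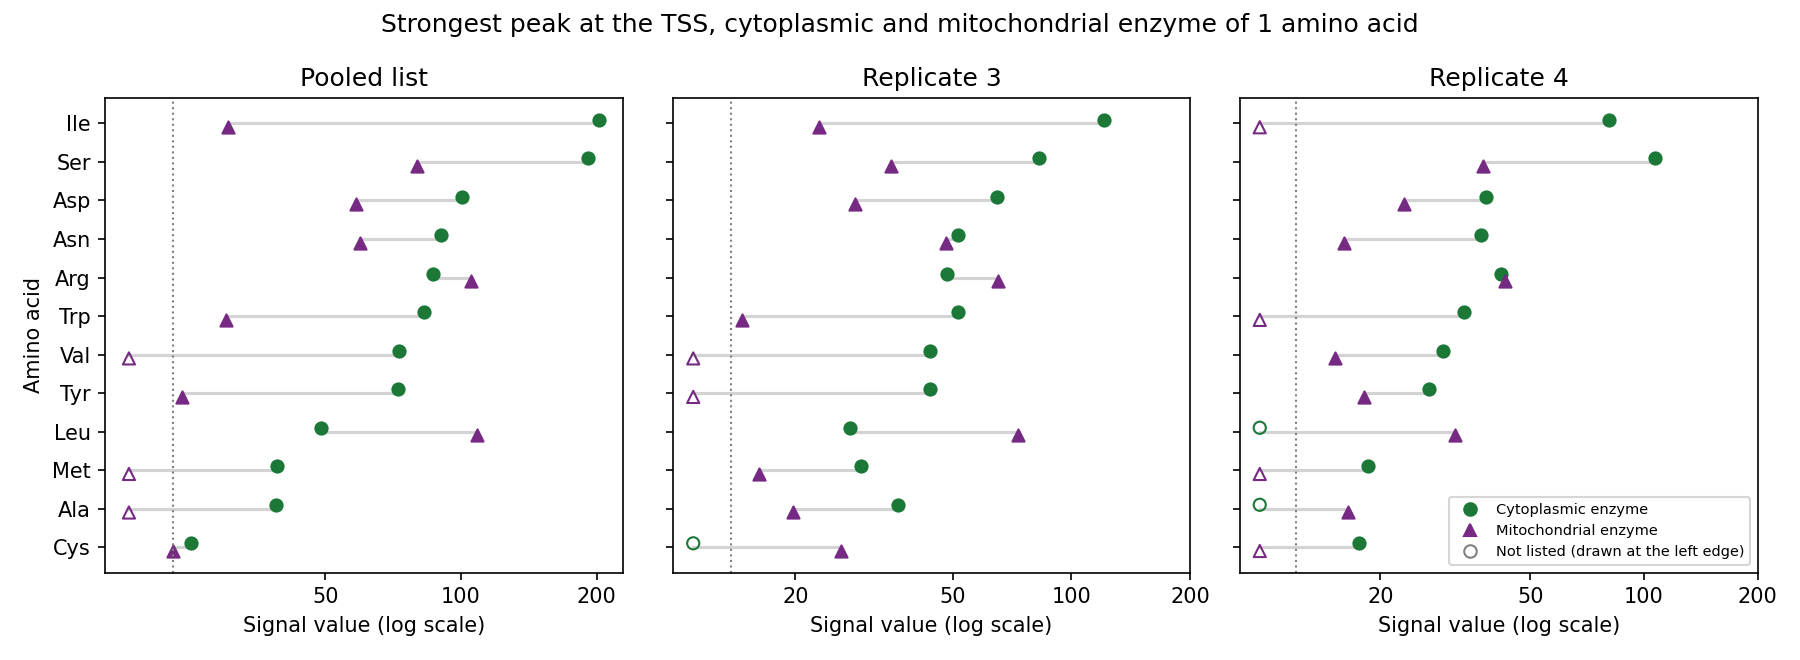
Signal value (log axis, arbitrary scale of each list) of the strongest peak at the start of the cytoplasmic (green circles) and mitochondrial (purple triangles) enzyme gene for each of 12 amino acids, in the pooled list, replicate 3 and replicate 4; open symbols left of the dotted line, the lowest value of the list, are not listed. The cytoplasmic gene lies to the right in 10, 9 and 9 of the 12 pairs, and the mitochondrial gene does so for Arg and Leu in all 3 panels. Many of the pooled peaks drawn lie nearer to a neighbouring gene's TSS, and others, such as that at IleRS, are shared with one.

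All 8 members with an optimal peak were listed in both replicates, which follows largely from the making of the optimal list from both. The weak ones were often listed in 1. Among the 32 genes, 19 were listed in both replicates, against 6034 of all 13945 protein-coding genes. A further 7 were listed in replicate 3 alone, 3 in replicate 4 alone and 3 in neither. The numbers over all genes for these last 3 cases are not given here. Across the 19, the signals of the replicates gave Spearman's rho = 0.78, beside 0.74 over the 6034 protein-coding genes listed in both. These points share the control used for both replicates, and genes are not independent replicates, so no p is given. The summits lay a median of 57 bp apart (0 to 552), within 100 bp for 14 of the 19. The distances over all genes listed in both are not given here, so these values have no background beside them. The 3207 strongest peaks of replicate 3 and those of replicate 4 had 5 members in common: IleRS, SerRS, ThrRS, AspRS and ArgRS-m (15.6% of the members, against 11.4% of all protein-coding genes). For the 24 members without an optimal peak at the start, the nearest optimal summit lay from 2116 to 106217 bp from a TSS, with a median of 6734 bp, so a wider limit of 1000 bp added none.

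Known promoter motifs were searched for at the members. Each promoter was searched on both strands from 250 bp before to 50 bp from the most 5′ TSS, for all 13945 genes. The DNA replication-related element TATCGATA, the site of the factor Dref, was in 5 of 32 member promoters (AlaRS, ArgRS, IleRS, TrpRS and PheRS-m, 15.6%), against 9.36% of all promoters. It was in 2 of the 8 members with an optimal peak (25%) and 3 of the 24 without (12.5%), beside 15.3% of all genes with an optimal peak. At IleRS and ArgRS it is the run of 8 capitals near the 3′ end of the sequences above, starting at -42 and -34 from the TSS, and none of the 8 optimal summits had the whole element within 100 bp. The Motif 1 core GGTCACACT was in 4 promoters (GlnRS, AsnRS-m, AspRS-m and ProRS-m, 12.5%, against 6.05%), none with an optimal peak. The E-box CACGTG was in those of GlnRS and LeuRS-m (6.25%, against 4.20%), and at LeuRS-m it is the run of capitals starting at -24 from the TSS. An element of the stress factor ATF4, TGATGNAA, which in mammals marks many synthetase genes, was found at CysRS alone (3.12%, against 4.07%). TATAAA was in 18 member promoters (56.2%, against 45.8%) and CCAAT in 14 (43.8%, against 46.7%). At AsnRS the matches to TATAAA overlap, since TTTATAAA reads the same on both strands. A match describes the letters only, and these windows differ from the summit windows where the summit is far from the TSS.

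A list of 22 related genes held the synthetase genes whose names have another form and genes that act beside the synthetases. All 22 were matched, 21 had a pooled relaxed peak, against 54.6% of all protein-coding genes, and 7 an optimal one, against 15.1%. GluProRS, the fused glutamyl-prolyl enzyme that serves the cytoplasm, had 150 in the pooled list (rank 1215), 98.5 in replicate 3 (rank 1046) and 53.6 in replicate 4 (rank 1609). The subunits of the cytoplasmic phenylalanyl enzyme differed: beta-PheRS had 106 (rank 2256), with 49.98 and 55.1 in replicates 3 and 4, while alpha-PheRS had 27.8 (rank 22084), 21.9 in replicate 3 and no listed peak in replicate 4. Slimp, a mitochondrial seryl synthetase paralog that does not charge tRNA, had 43.9 (rank 9736), was not listed in replicate 3 and had 19.0 in replicate 4. Of the scaffold genes of the multi-synthetase complex, AIMP1 had an optimal peak at 100.4 (rank 2442) and AIMP2 and AIMP3 had 27.6 and 49.9 in the pooled list, outside the optimal list. The subunits of the mitochondrial amidotransferase that makes glutaminyl-tRNA stood at 69.6 (GatA), not listed (GatB) and 90.8 (GatC, rank 2926, optimal).

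The elongation factor eEF1alpha delivers the charged tRNA to the ribosome, and the eEF1beta, eEF1delta and eEF1gamma subunits form its nucleotide exchange factor. Their genes included the strongest peaks of the list. The pooled signal was 526 at eEF1gamma (rank 81) and 269 at eEF1alpha1 (rank 412), above all 32 synthetase genes, and from 39.98 to 59.6 at eEF1alpha2, eEF1beta and eEF1delta. The mitochondrial factors mEFTu1, mEFTu2 and mEFTs had 33.8, 45.8 and 28.1, none in the optimal list. Gcn2, the kinase that senses uncharged tRNA, had an optimal peak at 118 (rank 1839), and crc, which encodes the fly ATF4, had 38.5 (rank 12299). The remaining genes of the list, CG1750 and Dtd, had 42.3 and 43.9. Of the optimal peaks in the list, those at GluProRS, AIMP1, GatC and Gcn2 were shared with another gene's start, so they cannot be assigned to 1 gene. Those at beta-PheRS, eEF1alpha1 and eEF1gamma were not shared. Over all genes with an optimal peak, 59.9% shared it.

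Beside the ribosomal protein genes, the other large gene class of translation, the synthetase genes had fewer optimal peaks. Of the 17 cytoplasmic synthetase genes 35.3% had one, with a median pooled rank of 4202, against 82.6% and a median rank of 528 for 92 cytoplasmic ribosomal protein genes. Of the 15 mitochondrial synthetase genes 13.3% had one, with a median rank of 20755, against 24.7% and 8872 for 73 mitochondrial ribosomal protein genes. In both families the cytoplasmic class had the larger share. The differences between families were not tested.

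**Figure D4:**
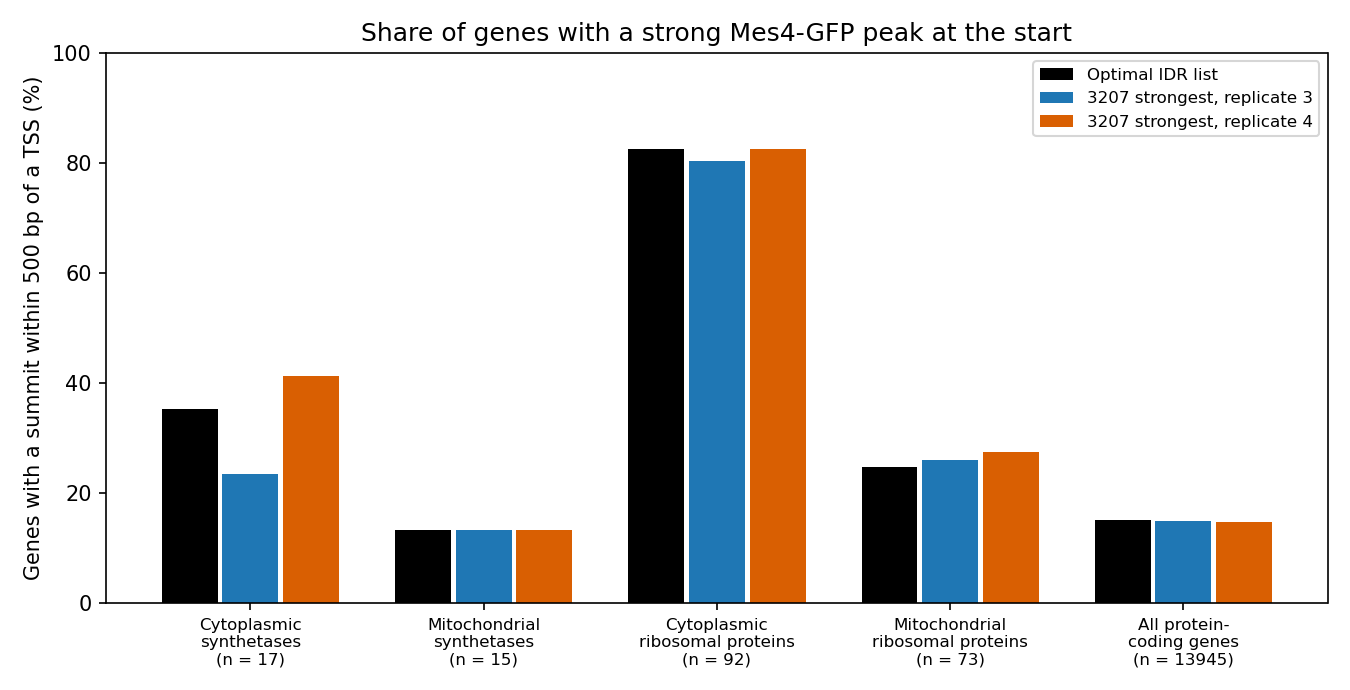
Share of genes (%, bars from 0) with a summit within 500 bp of a TSS in the optimal IDR list (black) and among the 3207 strongest peaks of replicate 3 (blue) and replicate 4 (orange), for cytoplasmic (n = 17) and mitochondrial (n = 15) synthetase genes, ribosomal protein genes of both kinds (n = 92 and n = 73) and all protein-coding genes (n = 13945). The cytoplasmic synthetase genes vary between replicates, at 23.5% and 41.2%, while the mitochondrial ones stay at 13.3%.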

How the data were processed

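Peaks were called by the authors, who deposited narrowPeak lists in dm6 and dm3; the dm6 lists were used. Per the deposited readme files, the relaxed lists were made from each replicate's alignments, or from both pooled, with a shared control, as input for an IDR procedure that gave the optimal list. The sources used here name neither the peak caller nor the threshold of that procedure. The score used is the signal value the authors deposited for each peak; the summit is the start plus the deposited offset.

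Coordinates are 1-based and in dm6. Genes and TSSs came from Ensembl release 115 (arms 2L, 2R, 3L, 3R, 4 and X, without transposable elements), and sequence from the Release 6 RefSeq genome, whose arms are longer than every peak end. Python 3.11.15, SciPy 1.17.1 and matplotlib 3.10.9 were used, and the scoring was tested on simulated data. The members, lists and motifs were chosen with earlier results of these data known, and the head-to-head distance, the summit windows of 100 bp and the printed stretches after the peaks had been seen. All members, the listed related genes and the genes sharing a member's peak could be named. No test was made: there is 1 group, and genes are not replicates. Alternatives covered TSS distances of 250 and 1000 bp, the stronger 1603 peaks, each replicate alone, nearest genes only, the most 5′ TSS, peak middles and a wider membership. Sequence from arm 2R is not printed.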

Additional observations from a re-analysis of the deposited data

How the results depend on the processing

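Of 48 values recomputed over 9 alternatives, 39 were within 1.5 times the main count or median or, for the difference between the classes, within 12.5 percentage points (the SD of that difference between replicates), 9 moved further and none reversed. The counts of all members, of each class and their difference rest on the same genes, so the 48 values are not independent. Peak middles could hardly move a value, since the members' pooled peaks were 416 bp wide with the summit at the middle. The SD rests on the 2 single-replicate differences, 10.2 and 27.8 points, so their own labels are not an independent check. Keeping only the stronger 1603 peaks left 3 members, 3 of them cytoplasmic and 0 mitochondrial, when 7.95% of all genes were left. Counting each peak only for the gene with the nearest TSS also left 3 members (IleRS, ThrRS and ArgRS-m), 2 cytoplasmic and 1 mitochondrial, when 10.9% of all genes were left, and the difference between the classes fell to 5.10 percentage points, against 22.0, since 5 of the 8 summits lie nearer to another gene's TSS. Members with a pooled relaxed peak then numbered 15 of 32, and the median pooled signal stood at 0, since more members were not listed than listed. The share of all protein-coding genes with a pooled peak under this rule is not given here, so this fall has no background beside it. Using 1 replicate alone, the number of members with a strong peak ranged from 6 to 9, the cytoplasmic number from 4 to 7, and the difference between the classes from 10.2 to 27.8 percentage points. Replicate 4 alone lost LeuRS-m and added GlnRS and SerRS-m, and replicate 3 alone lost ArgRS and AsnRS. Adding GluProRS, alpha-PheRS, beta-PheRS and Slimp gave 10 genes with an optimal peak and a difference of 27.5 points. The cause of the other moved values was not tested. For members not listed, the signal within 500 bp of a TSS is unknown, since read counts were not used here and how the lists were cut is not stated.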
